A study of Mus musculus with 12 samples.

Results

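CC chemokine ligands are small secreted proteins that attract leukocytes carrying matching CC receptors, and macrophages are one of their main sources. The 10 genes described here were chosen by name: Ccl2, Ccl7, Ccl8, Ccl12, Ccl24, Ccl17, Ccl22, Ccl3, Ccl9 and Ccl6. Each was found through the accession of a non-control array probe, and the brightest probe would have stood for a gene with several. All 10 had a probe, 1 each, out of 55681 non-control probes, and all 10 were among the 23109 genes and unnamed transcripts that passed the background filter. To pass it, a probe had to exceed background clearly in all 3 mice of some genotype. Ccl7, Ccl24 and Ccl22 passed it only through the genotypes without Bach2, and the other 7 also passed it in wild type.

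RNA came from alveolar macrophages, the resident macrophages of the airspaces, which were sorted by flow cytometry from lavage fluid of female C57BL/6 mice aged 8 to 9 weeks. The genotypes were Bach1 KO, Bach2 KO, a double knockout of both genes (DKO) and wild type (WT), with 3 mice each and 1 single-colour Agilent array per mouse. The labels name no allele, promoter or Cre line and no treatment. Bach1 and Bach2 are transcriptional repressors of the basic leucine zipper type that pair with small Maf proteins and can occupy sites also used by AP-1, and the comparisons ask what their loss, alone and together, does to transcript levels.

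Monocyte chemoattractants such as Ccl2, Ccl7 and Ccl12 recruit monocytes mainly through CCR2, and mouse Ccl8 acts on CCR8. Ccl24 is an eotaxin that acts on CCR3 of eosinophils, and Ccl17 and Ccl22 are the ligands of CCR4 on T helper and regulatory T cells. Ccl3, Ccl9 and Ccl6 act on CCR1. In macrophages and dendritic cells, IL-4 signalling through STAT6 is known to raise Ccl17, Ccl22 and Ccl24, while NF-kB and AP-1 are known to raise Ccl2, Ccl3 and Ccl7.

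Every level below is a log2 signal minus the 75th percentile of the same array, so that 0 is the 75th percentile of the non-control spots. Levels are compared only between arrays for the same probe. Differences are means ± SE from limma with n = 3 mice per genotype, and a gene was called when its p, adjusted by Benjamini and Hochberg's method across the 23109 genes and transcripts, was under 0.05. The p-values measure the spread between these 3 mice per genotype, whose number limits the precision. In bulk RNA, fewer cells of a type and less RNA per cell cannot be told apart.

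The share of spots clearly above background was 45.2% to 72.4% per array, no spot was saturated, and r among arrays of a genotype was 0.940 to 0.988. One slide carried every array of Bach1 KO and of WT and replicates 1 and 2 of Bach2 KO, Bach2 KO replicate 3 was on another, and the DKO arrays were on the third, which was scanned on a later day. DKO genotype and that slide and day cannot be told apart. The Bach1 probe had levels of 2.40 to 2.55 in Bach1 KO, 3.81 to 4.12 in Bach2 KO, 1.72 to 3.13 in DKO and 3.72 to 4.28 in WT. The Bach2 probe did not separate the genotypes, at -3.47 to -2.51 in Bach1 KO, -5.29 to -3.72 in Bach2 KO, -5.46 to -3.19 in DKO and -8.13 to -2.18 in WT, with WT replicate 3 not well above background. Where either probe lies relative to the deleted part was not tested.

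All 12 alveolar macrophage markers were well above background on every array. Their summed linear level (1 being the array's 75th percentile) was 1054 to 1747 in Bach1 KO, 449 to 640 in Bach2 KO, 398 to 599 in DKO and 1441 to 1838 in WT. Some other marker lists moved together with the chemokine genes and some did not. The interstitial or recruited macrophage, dendritic cell, T cell, B cell, monocyte and epithelial lists were higher in Bach2 KO and DKO than in WT. Without Bach2 the epithelial sum was mostly Cdh1, and the dendritic cell sum mostly Ccr7 and Batf3. The Cdh1 level was 4.46, 4.29 and 4.46 in Bach2 KO, 4.22, 4.54 and 4.21 in DKO, and 2.61, 2.28 and 1.49 in WT. The rest of the epithelial list did not rise in sum. Cdh1 and Batf3 are also on gene lists used below. The neutrophil list was lower in Bach2 KO than in WT, and the monocyte and B cell lists in Bach2 KO, though above WT, overlapped Bach1 KO. The summed level of 10 interstitial or recruited macrophage markers was 48.3 to 76.2 in Bach1 KO, 152 to 191 in Bach2 KO, 188 to 245 in DKO and 47.6 to 90.1 in WT, with 8 or 9 of them above background on Bach2 KO arrays, 7 to 9 on DKO arrays, 5 to 7 on Bach1 KO and WT arrays, and Cd163 on no array. That of the dendritic cell markers, 7 of 8 of which are on the array and which include Ccr7, was 1.80 to 6.44 in Bach1 KO, 51.0 to 66.5 in Bach2 KO, 26.6 to 54.5 in DKO and 5.86 to 9.71 in WT. T cell markers (8 of 9 on the array) summed to 1.59 to 2.67 in Bach1 KO, 3.92 to 4.04 in Bach2 KO, 3.54 to 4.45 in DKO and 1.29 to 2.73 in WT. Monocyte markers (6 of 7 on the array, Ccr2 among the list) summed to 4.47 to 8.46 in Bach1 KO, 4.60 to 5.66 in Bach2 KO, 11.7 to 15.8 in DKO and 2.86 to 4.54 in WT. Neutrophil markers summed to 15.6 to 20.5 in Bach1 KO, 0.674 to 3.82 in Bach2 KO, 8.44 to 15.2 in DKO and 8.70 to 20.0 in WT. Epithelial markers summed to 9.53 to 11.9 in Bach1 KO, 20.6 to 23.4 in Bach2 KO, 19.6 to 23.9 in DKO and 13.1 to 16.0 in WT, and B cell markers to 0.0894 to 0.543 in Bach1 KO, 0.370 to 0.567 in Bach2 KO, 0.331 to 0.430 in DKO and 0.106 to 0.194 in WT. Eosinophil markers summed to at most 0.0649 on any array, with Epx never above background, and of the mast cell and basophil markers Cpa3, Fcer1a, Mcpt8 and Ms4a2 were never above background. The part of these cells in the results below was not tested.

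Of the 7 ligand genes that were well above background in all WT mice, 6 rose in Bach2 KO and Ccl6 fell, a direction that turned with quantile normalization. Among all genes and transcripts tested, 12.4% rose and 24.7% fell. In DKO against WT, 6 of the 7 rose and none fell, beside 10.6% and 16.6% of all tested. Ccl7, Ccl24 and Ccl22 rose in both as well, but they were tested only because they are bright without Bach2, so their calls add nothing to these counts. Ccl24 and Ccl7 stood out by size: their probes stayed near background on each Bach1 KO and WT array and were far above background in every mouse without Bach2. The median log2 difference of the 7 genes was 2.63 in Bach2 KO and 2.19 in DKO, whereas the median over everything tested was -0.30 and -0.28. The members were chosen with earlier results of these data known, so these counts describe them and are not independent evidence of their direction.

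**Figure D1:**
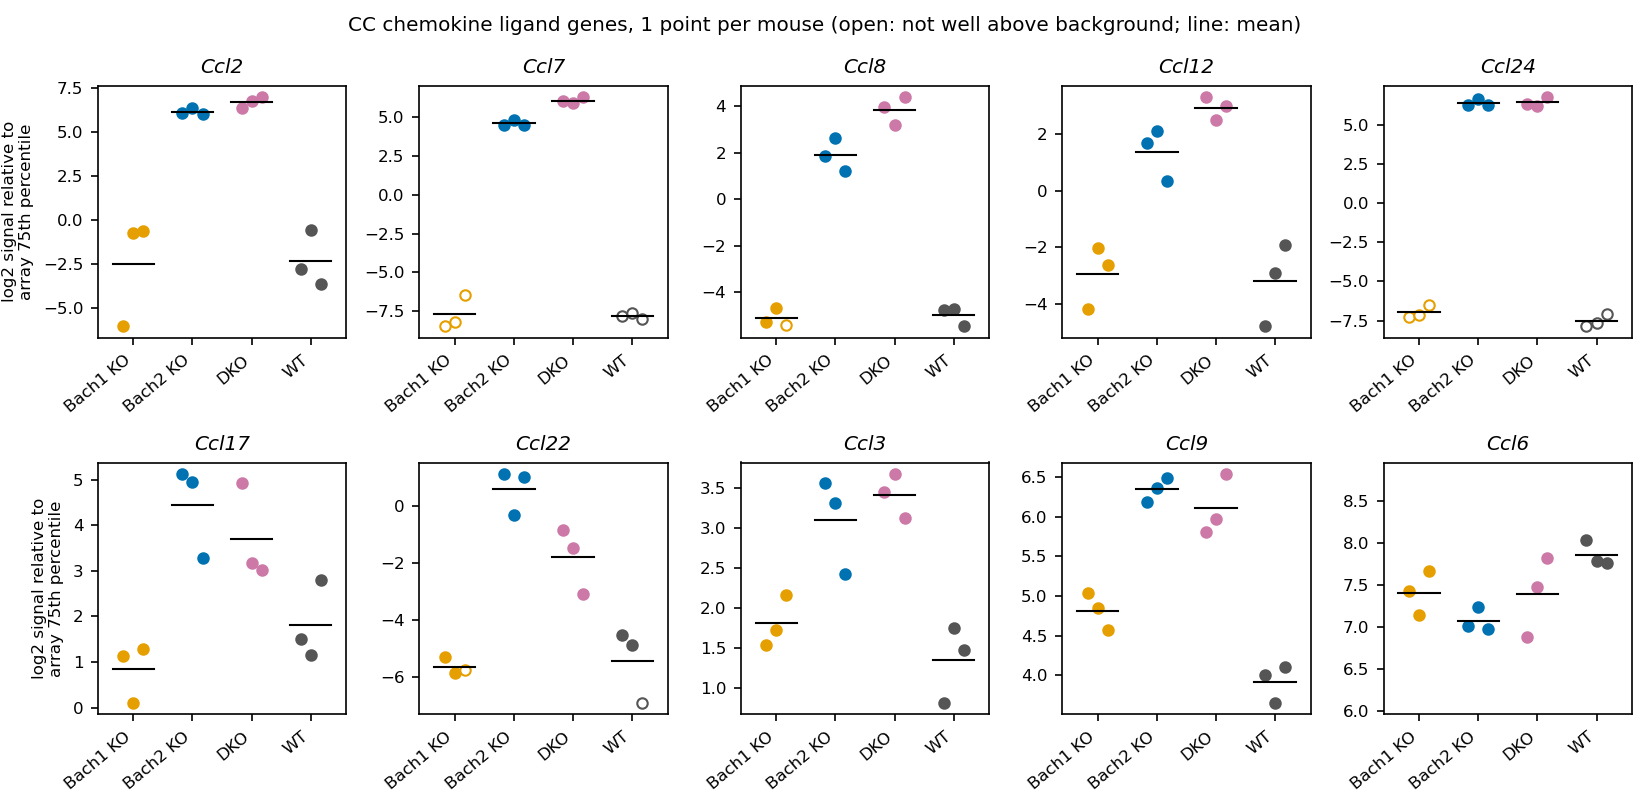
Level of each of the 10 CC ligand genes (y axis: log2 signal relative to the array's 75th percentile, its own range per gene) in the 3 mice of each genotype (x axis). Points are mice, open where the probe was not well above background, and lines are means. For 9 genes every Bach2 KO and DKO point lies above every Bach1 KO and WT point, and Ccl6 alone does not follow that pattern. Among the 9, Ccl7, Ccl22 and Ccl24 were tested only because they are bright without Bach2, so they add nothing to this count. Over everything tested, all Bach2 KO mice lay above all WT mice for 17.2% and below them for 33.4%. DKO mice lay above WT mice for 15.8% and above Bach1 KO mice for 18%. These shares are for pairs of genotypes, and none was computed for the whole pattern.

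The monocyte chemoattractant genes lie in 1 cluster on chromosome 11 (GRCm38.p6): Ccl2 at chr11:82035577-82037452, Ccl7 at chr11:82045712-82047525, Ccl12 at chr11:82101845-82103399 and Ccl8 at chr11:82115185-82116799. Ccl2, the main ligand of CCR2, was measured by 10 spots per array, whose SD within an array was 0.04 to 0.28. Its level was -6.04, -0.76 and -0.65 in Bach1 KO, 6.06, 6.35 and 6.04 in Bach2 KO, 6.36, 6.77 and 6.95 in DKO, and -2.78, -0.58 and -3.62 in WT. The mice without Bach2 were tightly grouped and far above all others, whereas the Bach1 KO and WT mice were spread over several log2 units, far more than the spots of one array. Ccl2 was 357-fold higher in Bach2 KO than in WT (log2 difference 8.48 ± 1.19, limma adjusted p = 0.000295) and 520-fold higher in DKO than in WT (9.02 ± 1.19, limma adjusted p = 0.000171). These differences were 9.35 and 9.90 without WT replicate 2, and 7.83 and 8.38 without WT replicate 3.

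Ccl7, which attracts monocytes and also other leukocytes, had a level of 4.50, 4.82 and 4.51 in Bach2 KO and of 6.04, 5.91 and 6.29 in DKO. No Bach1 KO or WT array gave its probe a signal well above background, so the differences from these are lower bounds, computed against the lowest signal called well above background on each array or the probe's own where that was higher. The level was at least 1297-fold higher in Bach2 KO than in WT (limma adjusted p = 3.13e-08), at least 3587-fold higher in DKO than in WT (limma adjusted p = 9.63e-09) and at least 3397-fold higher in DKO than in Bach1 KO (limma adjusted p = 1.13e-08). These bounds, 10.34, 11.81 and 11.73 on the log2 scale, hold for the processed signals: after normexp background correction with an offset of 50, which raises low signals, the fitted differences were 8.79, 10.33 and 10.74. No Ccl7 difference between Bach1 KO and WT can be given, since both were below background.

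Ccl8 had levels of -5.27, -4.68 and -5.42 in Bach1 KO, 1.86, 2.65 and 1.21 in Bach2 KO, 3.96, 3.21 and 4.37 in DKO, and -4.77, -4.73 and -5.46 in WT, with Bach1 KO replicate 3 not well above background. The 4 genotypes fell into 3 separate ranges, with DKO on top, Bach2 KO below it, and Bach1 KO and WT overlapping at the bottom. Ccl8 was 119-fold higher in Bach2 KO than in WT (6.89 ± 0.44, limma adjusted p = 8.52e-07) and 457-fold higher in DKO than in WT (8.83 ± 0.44, limma adjusted p = 1.01e-07), and with normexp the differences were 5.47 and 7.37.

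Ccl12, a mouse ligand of CCR2, had levels of -4.16, -2.02 and -2.63 in Bach1 KO, 1.69, 2.09 and 0.34 in Bach2 KO, 3.28, 2.48 and 2.99 in DKO, and -4.78, -2.90 and -1.90 in WT. Again the mice without Bach2 stood above all others and Bach1 KO and WT overlapped. The gene was 23.8-fold higher in Bach2 KO than in WT (4.57 ± 0.74, limma adjusted p = 0.000797) and 69.1-fold higher in DKO than in WT (6.11 ± 0.74, limma adjusted p = 8.87e-05). The differences were 3.78 and 5.32 without WT replicate 1, 5.22 and 6.76 without WT replicate 3, and 3.82 and 5.39 with normexp.

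Sequence just before the annotated start was held for 7 of the 10 genes in RefSeq's promoter table (GRCm38.p6). Ccl2, Ccl7 and Ccl24 had no entry and were not searched. For the 7, the 250 bases before that start were searched on both strands for 7 short motifs. These belong to factors that pair or compete with Bach proteins or are known at chemokine genes. Ccl8 and Ccl12, the 2 genes of this cluster that could be searched, are shown first. Both hold a match to TGCTGAG, which is part of the Maf recognition element that Bach and small Maf proteins bind. The match is in capitals, on the given strand in Ccl8 (chr11:82114935-82115184, plus strand) and on the other strand in Ccl12 (chr11:82101595-82101844, plus strand):
Ccl8: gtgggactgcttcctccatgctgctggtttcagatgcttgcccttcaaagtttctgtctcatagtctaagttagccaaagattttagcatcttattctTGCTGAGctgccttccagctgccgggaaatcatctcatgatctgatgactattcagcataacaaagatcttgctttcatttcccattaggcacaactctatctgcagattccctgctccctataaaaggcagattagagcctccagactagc
Ccl12: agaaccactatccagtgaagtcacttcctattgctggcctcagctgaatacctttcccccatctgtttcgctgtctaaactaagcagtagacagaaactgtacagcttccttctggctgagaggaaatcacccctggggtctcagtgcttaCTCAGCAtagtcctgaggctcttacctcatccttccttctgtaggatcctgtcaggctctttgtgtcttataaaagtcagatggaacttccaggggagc
The match starts 152 bases before the start of Ccl8 and 99 bases before that of Ccl12. TGCTGAG occurred in 6.21% of all 32851 promoter windows of the same length and in 2 of the 7 ligand windows. A match of these letters is a description of the window and shows no binding.

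Ccl24, the eotaxin gene at chr5:135569935-135573123, showed the most extreme contrast among the ligands by its lower bound. Its level was 6.25, 6.64 and 6.29 in Bach2 KO and 6.34, 6.21 and 6.74 in DKO, while no Bach1 KO or WT array was well above background. All 6 mice without Bach2 lay within a narrow band, and DKO and Bach2 KO overlapped. The level was at least 4454-fold higher in Bach2 KO than in WT (limma adjusted p = 8.09e-10), at least 4580-fold higher in DKO than in WT (limma adjusted p = 7.83e-10) and at least 4338-fold higher in DKO than in Bach1 KO (limma adjusted p = 1.26e-09). With normexp the fitted differences were 10.53, 10.61 and 10.76, below the log2 bounds of 12.12, 12.16 and 12.08. Its receptor gene Ccr3, a marker of eosinophils, was well above background in 1 of the 3 Bach2 KO mice and in no DKO mouse.

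Ccl17 (chr8:94809380-94812038, with the start used for its promoter window inside this span) and Ccl22 (chr8:94745684-94751388), the CCR4 ligands, lie near each other on chromosome 8. Ccl17 was already well above background in WT: its level was 1.14, 0.11 and 1.28 in Bach1 KO, 5.12, 4.95 and 3.28 in Bach2 KO, 4.93, 3.16 and 3.01 in DKO, and 1.51, 1.16 and 2.79 in WT. WT replicate 3 came close to the lowest Bach2 KO and DKO mice without reaching them. The gene was 6.20-fold higher in Bach2 KO than in WT (2.63 ± 0.64, limma adjusted p = 0.00822), a difference of 3.22 without Bach2 KO replicate 3. In DKO it was 3.69-fold higher than in WT (1.88 ± 0.64, limma adjusted p = 0.0480), and this call was lost without WT replicate 1, WT replicate 2, DKO replicate 1 or DKO replicate 2, with differences of 1.73, 1.55, 1.27 and 2.15 and adjusted p between 0.0626 and 0.186. It was also lost with slide as a random block (adjusted p = 0.0555), on the compared genotypes alone (0.0643), with median scaling (0.0734), without the filter on dim probes (0.0642) and without the eBayes trend (0.0564).

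Ccl22 had levels of -5.31, -5.89 and -5.79 in Bach1 KO, 1.12, -0.33 and 1.0 in Bach2 KO, -0.84, -1.49 and -3.10 in DKO, and -4.54, -4.91 and -6.92 in WT, with replicate 3 of Bach1 KO and of WT not well above background. Bach2 KO mice were highest, DKO mice lay below them without overlap, and Bach1 KO and WT mice overlapped at the bottom. It was 66.3-fold higher in Bach2 KO than in WT (6.05 ± 0.71, limma adjusted p = 8.03e-05) and 12.6-fold higher in DKO than in WT (3.65 ± 0.71, limma adjusted p = 0.00259). The differences were 5.32 and 2.92 without WT replicate 3 and 4.31 and 2.14 with normexp, and that of DKO was 4.29 without DKO replicate 3.

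The window before the start of Ccl17 (chr8:94810203-94810452, plus strand) is shown because it is the 1 of 7 that held a STAT motif, the type bound by the IL-4 responsive factor STAT6. The capitals mark a match to TTCNNNNGAA, which starts 154 bases before the start, and a separate match to TTCNNNGAA, which starts 99 bases before it:
Ccl17: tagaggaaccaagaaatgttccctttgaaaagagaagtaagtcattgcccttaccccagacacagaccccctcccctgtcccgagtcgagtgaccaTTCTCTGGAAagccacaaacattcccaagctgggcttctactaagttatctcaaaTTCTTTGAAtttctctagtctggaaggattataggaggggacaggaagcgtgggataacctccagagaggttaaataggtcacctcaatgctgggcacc
These motifs occurred in 5.85% and 7.02% of all windows. The Ccl22 window held neither, which says only that these letters are not in this window.

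Ccl3, Ccl9 and Ccl6 lie in a second cluster on chromosome 11, with Ccl9 at chr11:83572917-83578636, Ccl6 at chr11:83587886-83593087 and Ccl3 at chr11:83647843-83649378. Ccl9 had levels of 5.03, 4.85 and 4.57 in Bach1 KO, 6.19, 6.37 and 6.49 in Bach2 KO, 5.81, 5.98 and 6.54 in DKO, and 4.0, 3.65 and 4.11 in WT. WT mice were lowest, Bach1 KO mice lay above them, and DKO and Bach2 KO mice overlapped at the top. The gene was 5.38-fold higher in Bach2 KO than in WT (2.43 ± 0.23, limma adjusted p = 1.93e-05) and 4.55-fold higher in DKO than in WT (2.19 ± 0.23, limma adjusted p = 3.15e-05).

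Ccl3, a ligand of CCR1, had levels of 1.54, 1.72 and 2.16 in Bach1 KO, 3.57, 3.32 and 2.43 in Bach2 KO, 3.46, 3.68 and 3.12 in DKO, and 0.81, 1.75 and 1.47 in WT. The mice without Bach2 lay above all others, Bach2 KO replicate 3 by the smallest margin. Ccl3 was 3.39-fold higher in Bach2 KO than in WT (1.76 ± 0.35, limma adjusted p = 0.00260) and 4.21-fold higher in DKO than in WT (2.08 ± 0.35, limma adjusted p = 0.000951).

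Ccl6 was the 1 ligand that fell, though not under every scaling. Its level was 7.43, 7.14 and 7.67 in Bach1 KO, 7.02, 7.24 and 6.98 in Bach2 KO, 6.88, 7.48 and 7.83 in DKO, and 8.04, 7.79 and 7.76 in WT, bright in every mouse. Bach2 KO mice lay below WT mice without overlap, and DKO replicate 3 reached the WT range. The log2 difference was -0.79 ± 0.24 in Bach2 KO (limma adjusted p = 0.0240), but with quantile normalization it was 0.08 (adjusted p = 0.602) and without scaling -0.10 (adjusted p = 0.674), so its direction rests on the scaling. The call was also lost without WT replicate 1, Bach2 KO replicate 1 or Bach2 KO replicate 3, with differences of -0.70, -0.75 and -0.73 and adjusted p of 0.0843, 0.0695 and 0.0721. In DKO the difference was -0.47 ± 0.24 (limma adjusted p = 0.167), with an interval of -0.99 to 0.06.

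The Ccl9 window (chr11:83578637-83578886, minus strand) is shown as the 1 of 7 with a match to TGANTCA. This is a loose AP-1 type motif that takes any base in the middle, here A. The match is in capitals and starts 53 bases before the start:
Ccl9: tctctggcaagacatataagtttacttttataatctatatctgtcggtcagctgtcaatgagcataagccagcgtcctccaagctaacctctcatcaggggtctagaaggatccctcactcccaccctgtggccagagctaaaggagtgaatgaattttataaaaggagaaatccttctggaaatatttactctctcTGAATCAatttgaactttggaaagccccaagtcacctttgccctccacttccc
TGANTCA occurred in 6.75% of all windows. The same window held the NF-kB motif on the other strand, 35 bases before the start, which occurred in 3.90% of all windows and in no other ligand window. Of the remaining motifs searched, GAGGAA, the core of PU.1 sites, was found in 23.3% of all windows and in those of Ccl3, Ccl8, Ccl12 and Ccl17, and TTGCNNAA, a C/EBP type motif, in 9.56% of all windows and in no ligand window.

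**Figure D2:**
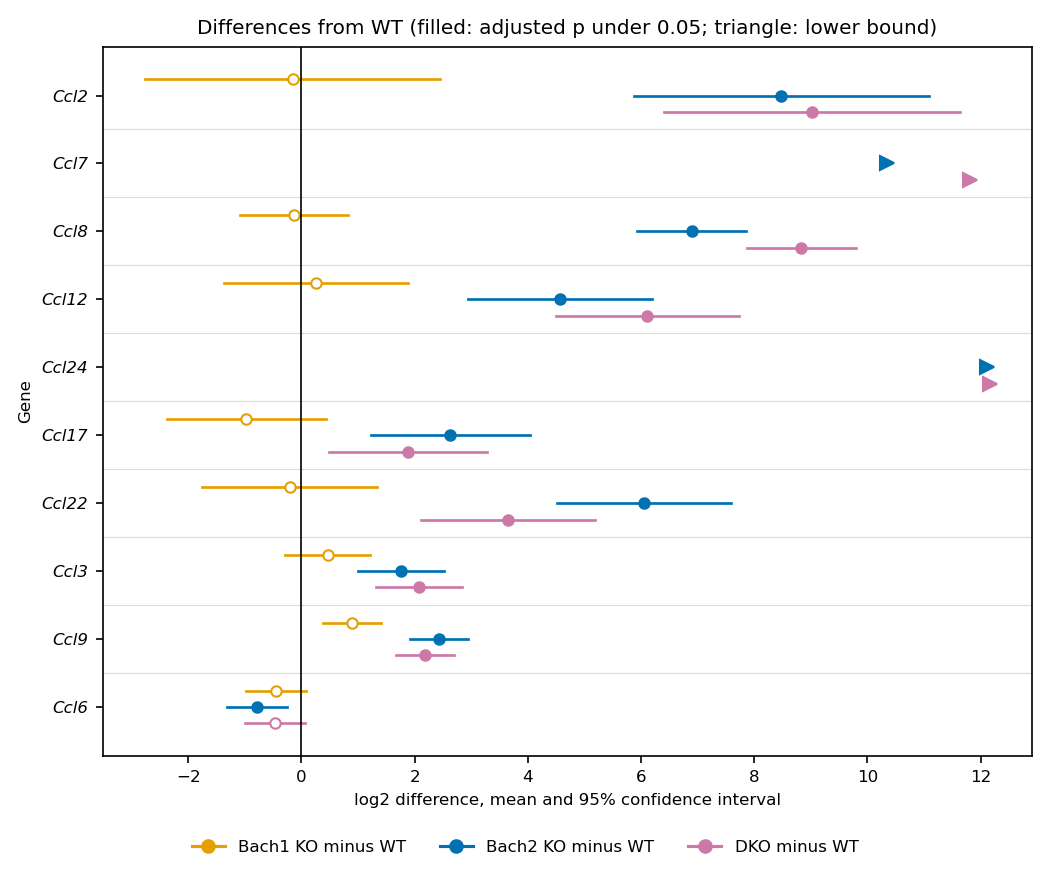
Difference from WT (x axis: log2) for each gene (y axis) in Bach1 KO, Bach2 KO and DKO, as mean with 95% confidence interval, filled at an adjusted p under 0.05. Triangles are the lower bounds of Ccl7 and Ccl24, which were below background in Bach1 KO and WT and have no Bach1 KO point. The intervals of Bach1 KO include 0 except for Ccl9, those of Bach2 KO and DKO lie above 0 for all genes but Ccl6, and that of Ccl6 in Bach2 KO lies below 0 under this scaling and turns to 0.08 with quantile normalization.

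Within the slide that held all WT mice and Bach2 KO replicates 1 and 2, the 7 genes measured in WT passed in the same directions. Their limma adjusted p lay between 6.50e-05 (Ccl8) and 0.0399 (Ccl6). Of everything tested there, 7.11% rose and 14.2% fell. Ccl7, Ccl22 and Ccl24 passed too, but they were tested only because they are bright without Bach2, so their calls add nothing. On this slide the differences were 8.53 for Ccl2, 7.24 for Ccl8, 5.85 for Ccl22, 5.09 for Ccl12, 3.22 for Ccl17, 2.36 for Ccl9, 2.10 for Ccl3 and -0.73 for Ccl6.

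With Bach1 alone missing, none of the 8 ligands with a measured level passed limma's test between Bach1 KO and WT, where 0.0173% of all genes and transcripts tested rose and 0.0433% fell. Of the 8, Ccl9 had an unadjusted p under 0.05, as did 5.3% of everything tested. Ccl9 was 1.86-fold higher in Bach1 KO than in WT (0.89 ± 0.23, limma adjusted p = 0.358), and its 3 Bach1 KO mice lay above all 3 WT mice, as for 2.51% of everything tested. Ccl6 was -0.45 ± 0.24 (limma adjusted p = 1.0), with Bach1 KO mice below WT mice without overlap, as for 4.28%. The other 6 genes with a measured level in both groups overlapped, and their differences lay between -0.97 for Ccl17 and 0.46 for Ccl3. The intervals were wide for several of them, from -2.76 to 2.45 for Ccl2 and from -2.38 to 0.43 for Ccl17, so that changes of several fold were not detectable with 3 mice per genotype. The median of the 8 genes with a value was -0.15, against -0.07 over everything tested.

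The comparison of DKO with Bach2 KO asks what the loss of Bach1 adds where Bach2 is missing, and its genotypes lay on different slides. It called 1 of the 10 ligands higher, Ccl8, and none lower, beside 1.45% and 2.12% of all genes and transcripts tested. Ccl8 was 3.84-fold higher in DKO than in Bach2 KO (1.94 ± 0.44, limma adjusted p = 0.0338), and the 3 DKO mice lay above the 3 Bach2 KO mice. The call was lost without DKO replicate 1 or 3 and without Bach2 KO replicate 1 or 3, where the difference was 1.89, 1.68, 1.92 and 1.59 and the adjusted p lay between 0.110 and 0.132, and also with no scaling (1.69, adjusted p = 0.101).

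The other monocyte chemoattractant genes did not pass between DKO and Bach2 KO. In each of them every DKO mouse lay above every Bach2 KO mouse, which held for 18.6% of everything tested, and the reverse for 16.5%. The Ccl7 difference was 1.47 ± 0.45 (limma adjusted p = 0.0972, interval 0.48 to 2.46), that of Ccl12 1.54 ± 0.74 (limma adjusted p = 0.258) and that of Ccl2 0.54 ± 1.19 (limma adjusted p = 0.842). The 4 genotypes share 1 estimate of the spread per gene, and for Ccl2 that includes the wide spread of the Bach1 KO and WT mice. Fitted on the DKO and Bach2 KO arrays alone, Ccl7 passed (1.47, limma adjusted p = 0.00894).

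Ccl22 went the other way: DKO mice lay below Bach2 KO mice without overlap, with a difference of -2.40 ± 0.71 (limma adjusted p = 0.0858, interval -3.94 to -0.86), and it passed on these arrays alone (limma adjusted p = 0.0474). The other CCR4 ligand, Ccl17, differed by -0.75 ± 0.64 (limma adjusted p = 0.544), and the groups overlapped. Ccl24 differed by 0.04 ± 0.32 (interval -0.66 to 0.74), Ccl3 by 0.31 ± 0.35, Ccl6 by 0.32 ± 0.24 and Ccl9 by -0.24 ± 0.23, all with overlapping groups and adjusted p between 0.482 and 0.960. The median over the 10 genes was 0.32, against 0.03 over everything tested.

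**Figure D3:**
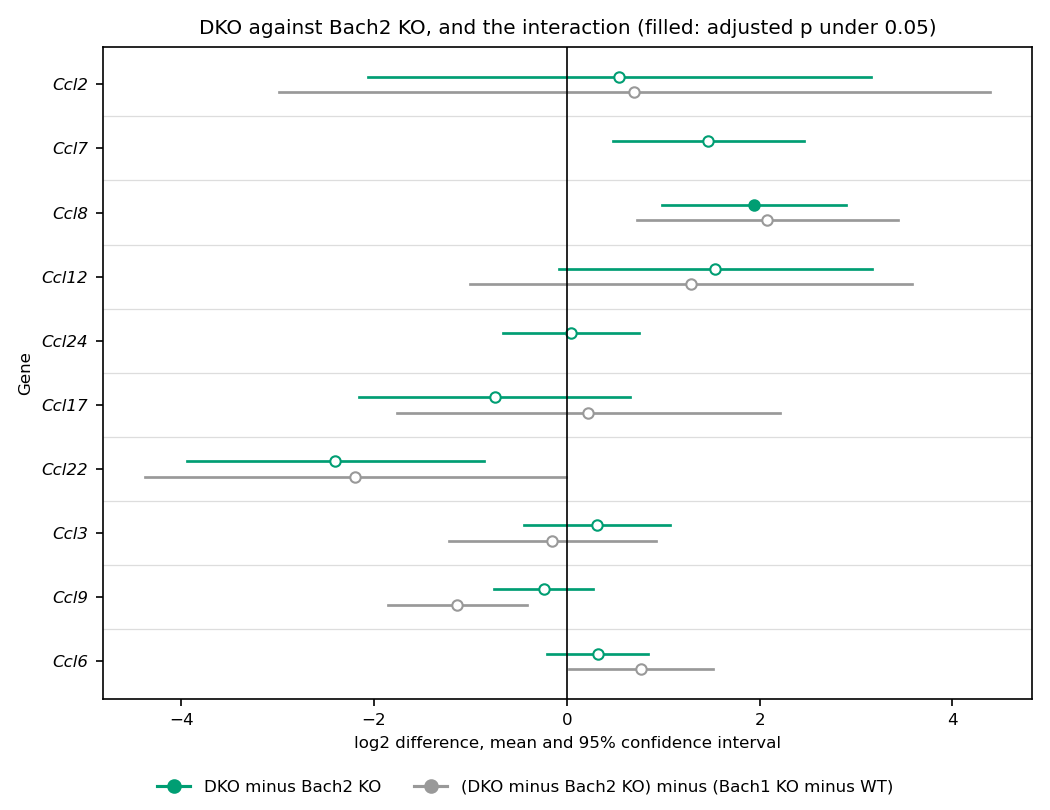
DKO minus Bach2 KO, and the interaction, for each gene (y axis) as log2 difference with 95% confidence interval (x axis), filled at an adjusted p under 0.05. Ccl8 is the 1 filled point, Ccl7, Ccl8 and Ccl22 have DKO minus Bach2 KO intervals that leave out 0, and Ccl7 and Ccl24 have no interaction because they were below background in Bach1 KO and WT.

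Whether loss of Bach1 acted differently with and without Bach2 was tested by the interaction, DKO minus Bach2 KO less Bach1 KO minus WT. None of the 8 ligands with a value passed limma's test, while 0.104% of all genes and transcripts tested were called higher and 0.571% lower. At an unadjusted p under 0.05 there were 4 of the 8, beside 14.8% of everything tested. The values for the 4 were 2.08 ± 0.62 for Ccl8 (limma adjusted p = 0.179), -1.13 ± 0.33 for Ccl9 (limma adjusted p = 0.171), -2.19 ± 1.0 for Ccl22 (limma adjusted p = 0.337) and 0.77 ± 0.34 for Ccl6 (limma adjusted p = 0.325).

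The comparison of DKO with Bach1 KO asks what the loss of Bach2 adds where Bach1 is missing. There 6 of the 7 ligands measured in WT rose and none fell, beside 10.9% and 15.3% of all genes and transcripts tested. Ccl7, Ccl22 and Ccl24 rose too, but they were tested only because they are bright without Bach2, so their calls add nothing. Ccl2 was 579-fold higher in DKO than in Bach1 KO (9.18 ± 1.19, limma adjusted p = 0.000156), Ccl8 502-fold (8.97 ± 0.44, limma adjusted p = 9.52e-08) and Ccl12 57.9-fold (5.86 ± 0.74, limma adjusted p = 0.000127). The size of the Ccl2 difference, though not its call, depended on Bach1 KO replicate 1. It was 7.40 without that mouse (limma adjusted p = 2.27e-05), against 10.04 without replicate 2 and 10.10 without replicate 3. That of Ccl12 was 5.24 without Bach1 KO replicate 1, and those of Ccl2 and Ccl8 were 8.46 and 7.42 with normexp. The folds were smaller for Ccl22 (14.5), Ccl17 (7.24), Ccl3 (3.06) and Ccl9 (2.45), with limma adjusted p between 0.00172 and 0.00681. The Ccl22 difference of 3.86 was 4.50 without DKO replicate 3 and 2.46 with normexp, and that of Ccl17, 2.86, was 2.24 without DKO replicate 1. Ccl6 differed by -0.02 ± 0.24 (interval -0.54 to 0.51). The median of the 7 was 2.86, against -0.21 over everything tested. This comparison shares the DKO arrays with the comparison of DKO with WT.

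Across the 12 arrays the 9 genes that rose followed one another, with Pearson r between 0.697 (Ccl9 and Ccl17) and 0.995 (Ccl7 and Ccl24). These points share genotype and array, and after each genotype's mean was subtracted r ranged from -0.792 (Ccl22 and Ccl24) to 0.645 (Ccl3 and Ccl12). Among named genes outside the family, the closest profiles over the 12 arrays were those of Arg1 (r = 0.988) and Lat2 (0.987) for Ccl2, Slc28a2 (0.998) and Gfi1 (0.998) for Ccl7, Hbegf (0.992) and Mefv (0.990) for Ccl8, and Pcbp3 (0.974) and Ifi211 (0.973) for Ccl12. For Ccl24 they were Oit3 (0.998) and Gprc5b (0.996), for Ccl17 Gas7 (0.948) and Serpina3f (0.938), and for Ccl22 Adam19 (0.975) and Gfra2 (0.971). The closest to Ccl3 were Sfmbt2 (0.968) and Tes (0.959), to Ccl9 Igf1 and Nnmt (both 0.967), and to Ccl6 Actg1 (0.973) and Lgals3 (0.963). These are descriptions over points that share genotype and array.

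Of 11 further CC ligand genes on the array, 5 passed the background filter, and of these none rose and 1 fell in Bach2 KO and in DKO against WT, where 24.7% and 16.6% of everything tested fell. That gene was Ccl27a, known for attracting T cells to skin, which fell to 0.09, 0.14 and -0.77 in Bach2 KO and to 0.33, 0.17 and 0.89 in DKO, against 2.36, 1.82 and 2.36 in WT (-2.36 ± 0.38 and -1.71 ± 0.38, limma adjusted p = 0.000708 and 0.00566). Ccl4, which lies in the same cluster as Ccl3, had levels of 5.39, 5.29 and 3.67 in Bach2 KO, 5.53, 5.56 and 7.23 in DKO, and 5.61, 5.41 and 5.79 in WT, and did not pass (-0.82 ± 0.52 in Bach2 KO, limma adjusted p = 0.234). Ccl5 differed by 2.13 ± 0.95 in Bach2 KO (limma adjusted p = 0.0986) and passed in DKO against Bach1 KO (2.78 ± 0.95, limma adjusted p = 0.0496).

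Several CC receptor genes were measured on the same arrays. Ccr7, the homing receptor of mature dendritic cells, reached 4.73, 4.88 and 5.16 in Bach2 KO and 5.26, 3.80 and 4.32 in DKO, against -0.62, -1.76 and -4.49 in WT (7.21 ± 0.84 and 6.75 ± 0.84, limma adjusted p = 7.90e-05 and 0.000105). The mice without Bach2 lay far above WT, and WT replicate 3 was the lowest of its group.

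Ccr2, the receptor of Ccl2, Ccl7 and Ccl12, passed in DKO against WT (1.60 ± 0.50, limma adjusted p = 0.0344), while in Bach2 KO the difference was 1.28 ± 0.50 (limma adjusted p = 0.0644). Ccr8, the receptor of mouse Ccl8, had levels of -2.58, -2.30 and -2.84 in Bach2 KO, -2.79, -2.66 and -2.71 in DKO, and -1.10, -1.98 and 1.39 in WT. Its mice without Bach2 lay below all WT mice, among which replicate 3 was far above the others. It fell by 2.01 in Bach2 KO (limma adjusted p = 0.0343) and by 2.15 in DKO (limma adjusted p = 0.0330) on the log2 scale, and Ccr6 fell by 1.80 in Bach2 KO (limma adjusted p = 0.0456). Ccr1 differed by 1.40 ± 0.73 in Bach2 KO and 1.95 ± 0.73 in DKO (limma adjusted p = 0.150 and 0.0667), with WT mice spread from -2.24 to 1.55. In none of the 12 mice did Ccr4, the receptor of Ccl17 and Ccl22, give a signal well above background, and Ccr3, that of Ccl24, did so in 3 of them. Ccr1, Ccr2, Ccr6, Ccr7 and Ccr8 did not pass between DKO and Bach2 KO.

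**Figure D4:**
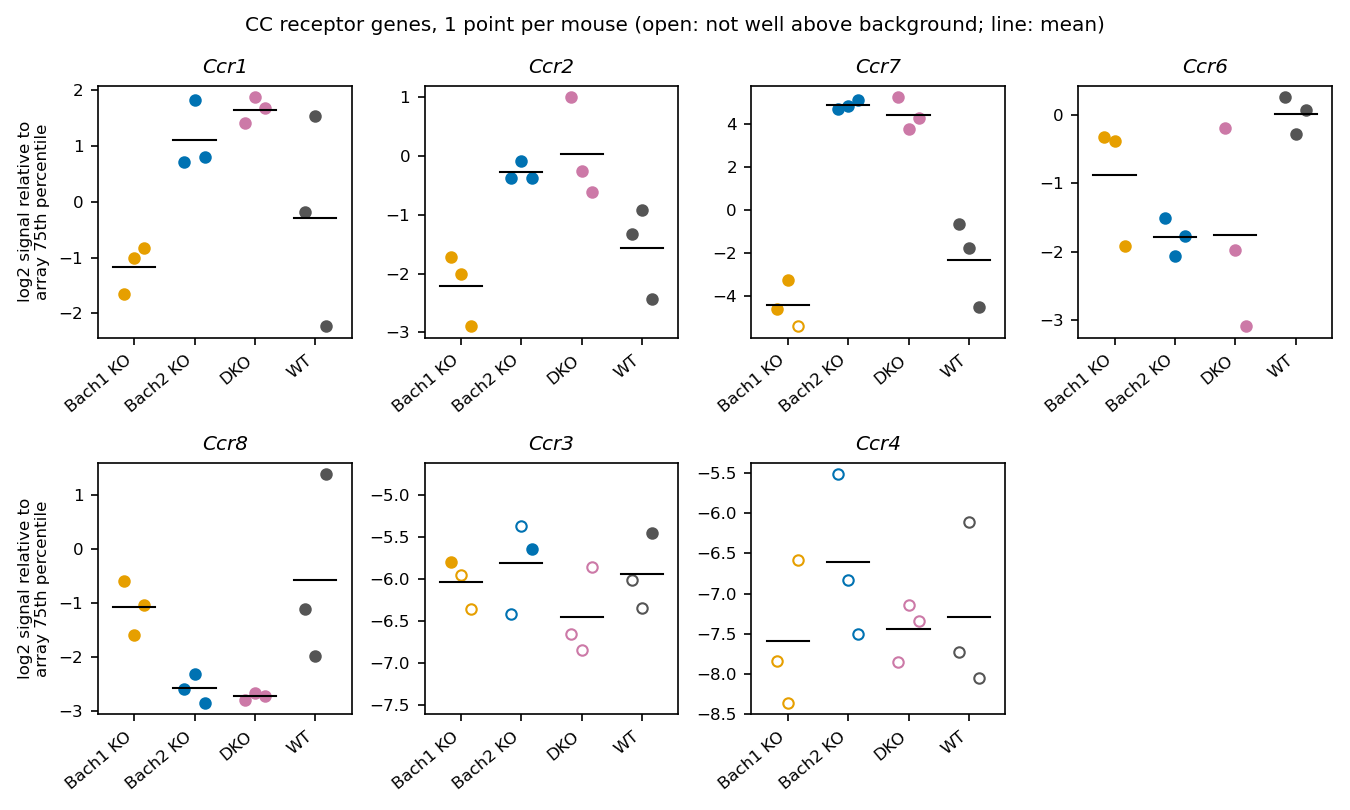
Level of 7 CC receptor genes (y axis: log2 signal relative to the array's 75th percentile) in the 3 mice of each genotype (x axis), with open points not well above background and lines at the means. Ccr7 is high in every Bach2 KO and DKO mouse, and Ccr3 and Ccr4 lie at or near background throughout.

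Genes of the IL-4 and STAT6 pathway and its known responses, the setting in which Ccl17, Ccl22 and Ccl24 are usually induced, moved in the same comparison. Of 20 genes, 11 rose, 2 fell and 7 did not pass in Bach2 KO, and 9 rose, none fell and 11 did not pass in DKO, both against WT. Over everything tested 12.4% rose and 24.7% fell in Bach2 KO, and 10.6% rose and 16.6% fell in DKO. Arg1 and Retnla were tested only because they are bright without Bach2, so they add nothing to these counts. Retnla, a marker of alternative activation, was at least 2524-fold higher in Bach2 KO (limma adjusted p = 4.07e-07) and at least 753-fold higher in DKO (limma adjusted p = 7.86e-07). Pdcd1lg2, the ligand PD-L2, differed by 3.37 ± 0.23 in Bach2 KO and 3.17 ± 0.23 in DKO (limma adjusted p = 1.33e-06 and 1.34e-06), and Socs1, a feedback inhibitor of cytokine signalling, by 4.48 ± 0.33 and 5.01 ± 0.33 (limma adjusted p = 2.45e-06 and 6.56e-07). Cdh1, which is also an epithelial marker, rose by 2.28 ± 0.27 in Bach2 KO, and Clec10a by 4.63 ± 0.55 in DKO. Not all response genes rose: for Mrc1 and Tgm2, Bach2 KO and DKO mice overlapped WT mice. Mrc1 levels were 5.19, 5.53 and 5.73 in Bach2 KO, 4.92, 5.35 and 5.11 in DKO, and 5.69, 6.04 and 5.33 in WT. The 2 that fell in Bach2 KO were Stat6 itself (-0.97 ± 0.19, limma adjusted p = 0.00254) and Chil3, which is also an alveolar macrophage marker (-0.75 ± 0.27, limma adjusted p = 0.0487). Both falls depend on the scaling. Without scaling every difference of Bach2 KO from WT was higher, by nearly as much as Chil3 fell and by less than Stat6 fell. The list's median was 1.38 in Bach2 KO and 0.96 in DKO, against -0.30 and -0.28 over everything tested.

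Of 23 NF-kB, AP-1 and colony stimulating factor genes known to act on chemokine genes, 8 rose, 5 fell and 10 did not pass in Bach2 KO, and 9 rose, 4 fell and 10 did not pass in DKO, both against WT, beside the same shares of everything tested. Among those with the smallest adjusted p in both were Csf1, the macrophage growth factor (9.67 ± 0.77 and 10.38 ± 0.77), Il6 (6.64 ± 1.24 and 7.07 ± 1.24) and the AP-1 subunit gene Junb (4.12 ± 0.77 and 3.97 ± 0.77), with limma adjusted p of at most 0.00271. In WT, Csf1 was well above background in 2 of the 3 mice and Il6 in 1, so the sizes of their differences are not settled. Il6 and Maf were tested only because they are bright without Bach2, so they add nothing to the counts of this list. Rela, the main activating NF-kB subunit, fell by 1.46 in Bach2 KO on the log2 scale (limma adjusted p = 0.00228). The median of the 23 genes was 0.60 in Bach2 KO and 0.56 in DKO.

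Between DKO and Bach2 KO, where Ccl8 was the 1 ligand called, 1 of the 23 genes passed, beside 1.45% of everything tested that rose and 2.12% that fell. Jun, an AP-1 subunit gene, was higher in DKO (2.31 ± 0.40, limma adjusted p = 0.0101), and its interaction also passed (2.98 ± 0.57, limma adjusted p = 0.0405). None of the 20 IL-4 and STAT6 genes passed in that comparison. Against Bach1 KO, 10 of the 20 IL-4 and STAT6 genes rose in DKO and none fell, and 11 rose and 3 fell of the 23 NF-kB, AP-1 and colony stimulating factor genes, beside 10.9% and 15.3% of everything tested. Here too Arg1, Retnla, Il6 and Maf add nothing to the counts, since they were tested only through the genotypes without Bach2. In Bach1 KO against WT no gene of the IL-4 or NF-kB lists passed, nor did these receptor genes.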

How the data were processed

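RNA from sorted alveolar macrophages of 12 mice was amplified and hybridised to single-colour arrays, per the labels' protocols. The intensity values used are the deposited gProcessedSignal of Agilent Feature Extraction, per the file headers version 10.7.3.1 and per the submitters' processing notes 9.1. The deposited log2 values of the series matrix, whose probe medians are 0 and for whose scaling no source used here gives details, served only as an alternative.

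From these, outlier spots were dropped, log2 intensity minus each array's 75th percentile was taken over 59305 non-control spots, and spots of a probe were averaged. Probes were named through their accessions with RefSeq's gene table (26413 of 55681 matched 1 gene, the rest stayed unnamed), and the brightest probe stood for a gene. Probe sequences were not used here, so cross-hybridisation between related ligands was not tested. Genes well above background on all 3 arrays of a genotype were fitted with limma 3.58.1 in R 4.3.3 (lmFit, eBayes with trend, 8 residual degrees of freedom, all 4 genotypes in 1 fit) and adjusted by Benjamini-Hochberg over 23109. The procedure was tested on simulated data. Figures used matplotlib 3.10.9.

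The ligands and gene lists were chosen with earlier results of these data known. All ligands are named; of each other list, up to 4 genes per comparison with the smallest adjusted p among those that passed are named, and further genes (Ccl4, Ccl5, receptors of the ligands, Stat6, Chil3, Rela, Jun) were chosen after their values were seen. Some results on single genes of these lists are not reported here. Alternatives covered background correction, scaling, filters, probe summary, samples in the fit, slide, replicate number, threshold and left-out arrays. Normexp on mean signals could not be run because the files used hold none, and median signals were used instead.

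Replicate numbers of the titles were not taken as pairs: deviations of same-numbered arrays correlated between -0.143 and 0.385, over 0.1 in 6 of 18 pairs.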

Additional observations from a re-analysis of the deposited data

How the results depend on the processing

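Among the single-gene differences recomputed under other settings, 1333 kept their direction and their side of the threshold, 22 lost the call, 10 gained one and 1 reversed. Ccl6 in Bach2 KO against WT turned to 0.0815 with quantile normalization. Keeping only probes well above background on all arrays left 6 ligands to test. Of these, 5 rose and 1 fell in Bach2 KO against WT, where 41.5% of everything tested was called. In DKO 5 rose against Bach1 KO and 5 against WT, beside 25.5% and 27.7% called over everything tested. Between DKO and Bach2 KO 0 passed, beside 4.43%. For DKO against Bach2 KO (1 call), quantile normalization gave 2 calls, no scaling 0, the compared genotypes alone 3, an adjusted p under 0.01 gave 0, and 2 settings chosen after seeing the data, normexp on median signals and leaving out WT and Bach1 KO replicates 3, gave 3 each. The interaction (0 calls) gave 1 with quantile normalization (Ccl9), 1 with normexp and 1 without those replicates (Ccl7 in both, not interpretable because 2 of its groups were below background). The causes were not tested.

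Leaving out 1 array of the compared genotypes at a time gave 9 to 10 ligand calls in Bach2 KO against WT. There 25.9% to 41.1% of everything tested was called. It gave 8 to 9 in DKO against WT (18.9% to 31.7%) and 9 in DKO against Bach1 KO (18% to 25%). In DKO against Bach2 KO it gave 0 to 1 (1.27% to 2.44%), and in Bach1 KO against WT and the interaction 0. Ccl7, Ccl22 and Ccl24 are in these counts, though tested only because they are bright without Bach2, so their calls add nothing. Normexp on median signals lowered the differences of Ccl7, Ccl24, Ccl8 and Ccl22 from WT and from Bach1 KO, and some of Ccl12 and Ccl2, by over 1.5-fold, as given with each gene, with no call lost there. With no scaling every difference of Bach2 KO from WT was 0.69 higher, and quantile normalization gave Ccl9 3.14 there.

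The replicate block gave as many ligand calls as the fit without it. There were 10 in Bach2 KO against WT, 9 in DKO against WT and 9 in DKO against Bach1 KO. Over everything tested it called 36.9%, 27% and 25.9% there, and Ccl7, Ccl22 and Ccl24 again add nothing to the counts. It gave 1 ligand call in DKO against Bach2 KO, and 0 in Bach1 KO against WT and in the interaction. DKO against Bach2 KO had 749 calls over all genes and transcripts, against 824.

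Scaling sets the split over all genes and transcripts: Bach2 KO against WT gave 2873 higher and 5713 lower, against 4776 and 2165 with no scaling (median -0.30 against 0.39), and DKO against WT 2442 and 3842, against 3136 and 1844. In DKO against Bach2 KO the 824 calls became 1344 with quantile normalization, 1885 on the compared genotypes alone and 1287 with the series matrix. Bach1 KO against WT had 14 calls, against 26 with quantile normalization, 6 with the series matrix, 2 on the compared genotypes alone, 85 without WT replicate 2, 80 without Bach1 KO replicate 2, and 7 without WT replicate 1 or Bach1 KO replicate 1. The interaction had 156, against 72 with the series matrix and 75 to 264 with 1 array left out. DKO against Bach2 KO had 293 to 1063 with 1 array left out, the fewest without Bach2 KO replicate 1, then 306 without DKO replicate 1.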
